A study of Caenorhabditis elegans with 16 samples.

Results

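The wildtype day 1 adult transcriptome of *Caenorhabditis elegans* was described from the 4 wildtype libraries of the series, out of 16 libraries in all, chosen by their label and by nothing measured in them. Each holds read counts for 22248 annotated genes. The other libraries came from *ubql-1(tm1574)* animals, which carry an allele of the ubiquilin-1 gene, from *hsf-1* OE animals, which carry the transgene uthIs235 (*hsf-1* behind the ubiquitous *sur-5* promoter, with a *myo-2p::tdTomato* marker), and from *hsf-1* OE;*ubql-1(tm1574)* animals with both (the double genotype), at 4 libraries each. Wildtype was the N2 laboratory strain. Every group was staged by egg-laying, fed OP50 bacteria on NGM plates at 20 °C and frozen on day 1 of adulthood, and RNA was taken from whole animals, so that each library mixes all tissues. Poly(A)-selected mRNA was sequenced. The labels call the libraries of a group replicates without saying what was repeated, so the errors and p-values here measure the spread between these samples.

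The young adult hermaphrodite is a mostly post-mitotic body built around an active gonad. Its intestine makes yolk lipoproteins (vitellogenins) that are secreted and taken up by oocytes, its epidermis secretes the collagens of the cuticle, and its gonad holds a fixed store of sperm made before the switch to oocytes. Oocytes are loaded with maternal mRNA and protein, and ribosomes and translation factors are needed for all of this.

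The wildtype libraries held 19176247 to 27322700 counts, and all 16 held 18202151 to 30524762 counts. Labels were checked on the 2 genes that define the other genotypes, as normalised counts on a scale shared by all libraries. *ubql-1* averaged 1745 ± 119.4 in *ubql-1(tm1574)* and 4078 ± 174 in wildtype (SD, n = 4 each). *hsf-1* averaged 1982 ± 417 in the *hsf-1* OE-labelled libraries, 2728 ± 385 in the double genotype, whose label names the same transgene, and 2426 ± 180 in wildtype. The ranges of both groups with the label overlapped that of wildtype, and the mean was below wildtype in the first and above it in the second. For that reason the *hsf-1* OE libraries are named by their label below.

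Levels are given in TPM, the relative number of transcripts, which divides counts by gene length and scales each library to the same total. Of the 22248 genes, 1415 had no count in any wildtype library and 7580 more averaged under 1 TPM. At 1 TPM or more in all 4 libraries were 11905 genes (53.5%), with a median of 21.8 TPM. The distribution was steep. The 158 genes at 1000 TPM or more, 0.710% of all genes, held 39.7% of the summed TPM, and 319 genes held 50% of it. In the single libraries the number of genes that held this share was 333, 294, 308 and 336. The ranking was shared by the libraries: 90 of the 100 most abundant genes were among the top 100 in each of the 4, and Pearson's r of log2(TPM + 1) between pairs of libraries was 0.982 to 0.989 across 22248 genes, which are not independent replicates.

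The most abundant mRNA was that of *eef-1A.1*, which encodes the elongation factor that brings aminoacyl-tRNA to the ribosome (gene F31E3.5, chromosome III, 6970026 to 6971719, WBcel235). It stood at 7148, 9243, 8601 and 7786 TPM in replicates 1 to 4, a mean of 8194 ± 917 (SD, n = 4), and ranked first in every library. Reads of its near-identical copy *eef-1A.2* could be split between both genes. Behind it came *rps-23* at 5604 ± 239 TPM, *rps-25* at 5097 ± 356, *rplp-1* at 4980 ± 248 and *rpl-27A* at 4880 ± 194, all cytosolic ribosomal proteins. Of the 20 most abundant genes, 14 encode proteins of the ribosome. The others were *eef-1A.1*, the vitellogenins *vit-2* and *vit-6*, the cuticle collagens *col-124* and *col-140*, and *far-2*, a fatty acid and retinol binding protein.

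**Figure D1:**
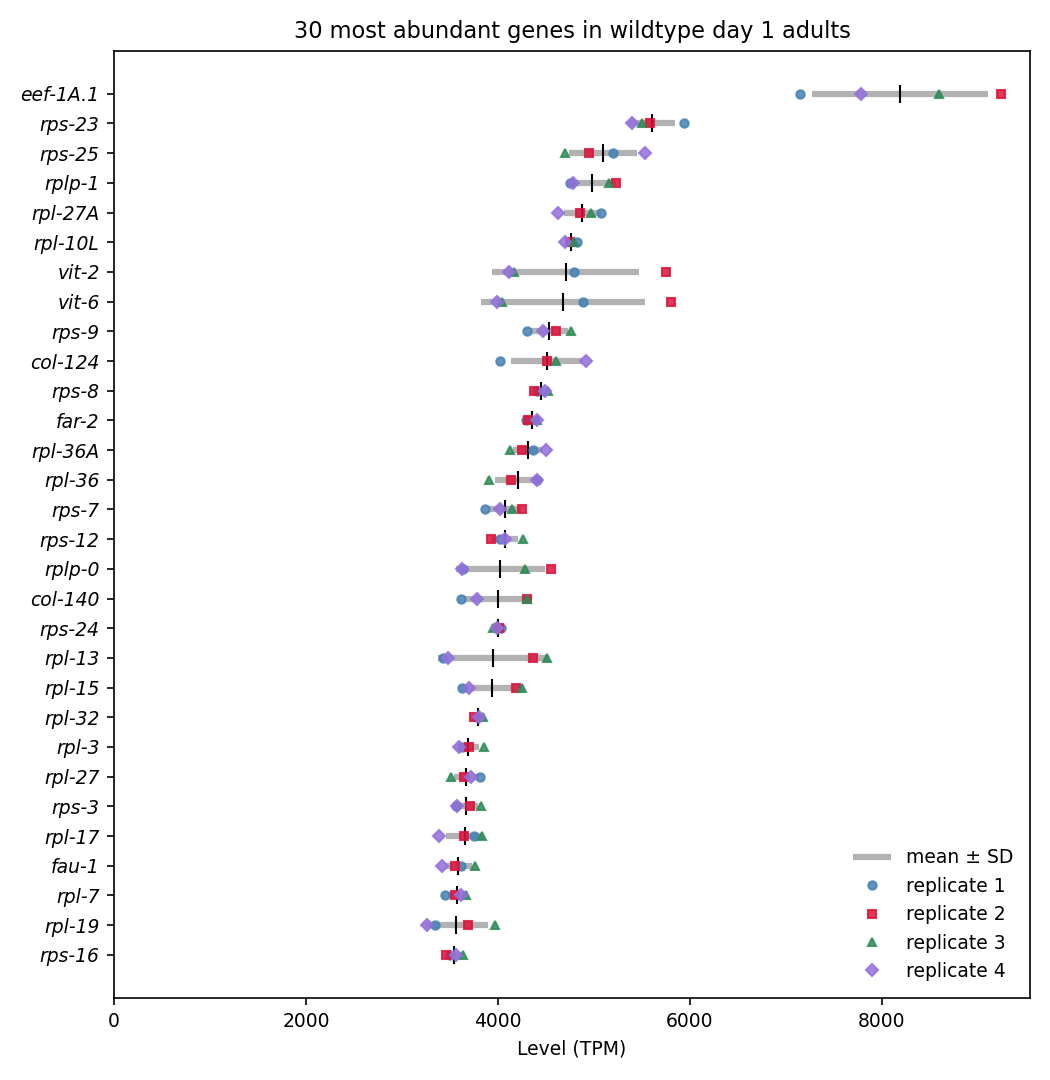
The 30 most abundant genes in wildtype day 1 adults, with the level in TPM on the x axis and 1 marker for each of the 4 libraries; the grey bar spans the mean ± SD and the tick is the mean. *eef-1A.1* lies apart at 8194 TPM, and *vit-2* and *vit-6* have wider bars than most ribosomal protein genes around them, with replicate 2 highest.

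The 2 vitellogenins near the top differed between libraries in the same way. *vit-2* (C42D8.2, chromosome X, 5101032 to 5106173) stood at 4789, 5755, 4164 and 4112 TPM in replicates 1 to 4. *vit-6* (K07H8.6, chromosome IV, 8261145 to 8266463) stood at 4888, 5807, 4044 and 3989 TPM. Replicate 2 was highest and replicate 4 lowest for both. *col-124* (C24F3.6, chromosome IV, 10216450 to 10217485) was lowest in replicate 1 and highest in replicate 4, at 4018, 4507, 4609 and 4920 TPM. *far-2* (F02A9.3, chromosome III, 9081679 to 9082514) barely varied, at 4294, 4314, 4403 and 4404 TPM. Without division by length the order at the top was another one. In CPM (counts scaled by depth alone), *vit-6* led at 18194 ± 3087 and *vit-2* followed at 17811 ± 2654, ahead of *eef-1A.1* at 9763 ± 1006. The lengths used were 5080 bases for *vit-6*, 4948 for *vit-2* and 1556 for *eef-1A.1*.

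The machinery of translation took the largest share of any class. The 85 cytosolic ribosomal protein genes held 23.7, 24.3, 24.1 and 23.2% of the summed TPM in replicates 1 to 4, a mean of 23.8 ± 0.482% (SD, n = 4), and made up 68 of the 100 most abundant genes. All but 2 of them exceeded 100 TPM, and those 83 had a median of 2872 TPM and ran from 248 for *rpl-41.1* to 5604 for *rps-23*. The 2 below were *rpl-37.2* at 17.8 TPM and *rpl-42* at 4.01 TPM. The 45 translation factor genes added 2.49 ± 0.155%. After *eef-1A.1*, the leading ones were *rack-1* at 2320 ± 372 TPM, a scaffold on the small ribosomal subunit, *eef-1G* at 1948 ± 186 and the translocase *eef-2* at 1938 ± 91.5. Proteins of the mitochondrial ribosome were at a lower level, with a median of 68.0 TPM over 70 genes and a share of 0.4996 ± 0.0127%. By share of counts instead of TPM, cytosolic ribosomal proteins took 11.6%, which remained the largest class.

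The nuclear genes of energy metabolism were even between libraries, and the mitochondrial genome was not. The 77 nuclear genes of the respiratory chain and ATP synthase held 2.77 ± 0.0174% of the summed TPM, a coefficient of variation of 0.630%. The class was led by *ant-1.1*, the adenine nucleotide carrier of the inner membrane, at 3310 ± 252 TPM, and by the ATP synthase subunits *atp-2* at 1968 ± 123 and *atp-1* at 1475 ± 85.3. The mitochondrial genome gave 1.14 ± 0.159%, at 0.981, 1.07, 1.17 and 1.35% in replicates 1 to 4. Replicate 1 was lowest and replicate 4 highest, and the 4 leading transcripts of the class, *COX1*, *COX3*, *CYTB* and *ATP6*, all had their highest level in replicate 4. *COX1*, the core subunit of cytochrome c oxidase, stood at 1933, 2047, 2357 and 2614 TPM. Nuclear rRNA, which poly(A) selection is meant to remove, stood at 0.309, 0.516, 0.435 and 0.783%. It was also lowest in replicate 1 and highest in replicate 4, but replicates 2 and 3 were in the other order. In *ubql-1(tm1574)* nuclear rRNA was highest in replicate 1 (0.947%), where the mitochondrial share was lowest (1.11%). The *hsf-1* OE-labelled libraries also had these extremes in replicate 1. In the double genotype nuclear rRNA was lowest in replicate 4 (0.330%), where the mitochondrial share was highest (1.43%). The part of nuclear rRNA in the mitochondrial values was not tested. Glycolytic genes held 0.409 ± 0.00661%, led by the aldolase *aldo-2* at 799 ± 40.2 TPM and the enolase *enol-1* at 612 ± 25.7. The 21 genes of the vacuolar ATPase, the proton pump that acidifies lysosomes, held 0.612 ± 0.0231%, with *vha-2* at 1048 ± 38.6 TPM.

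Cuticle collagens were the next class after ribosomal proteins, with 5.37 ± 0.379% of the summed TPM, at 4.94, 5.27, 5.85 and 5.42% in replicates 1 to 4. The class is large and uneven: of 175 genes, 74 passed 1 TPM in all libraries, 13 were among the 100 most abundant genes, and the median gene was at 3.04 TPM. The leaders were *col-124* at 4513 ± 374 TPM, *col-140* at 4001 ± 358, *col-122* at 3420 ± 402 and *col-20* at 3347 ± 296. Collagens known as adult forms, *col-19* at 2540 ± 139 TPM and *col-119* at 2814 ± 177, were among the top 100. *dpy-7* and *rol-6*, which larvae use at moults, averaged 0.277 and 0.367 TPM. Of the 12 epidermis markers, these 2 stayed under 1 TPM in all libraries and the other 10 averaged 1 TPM or more. The collagens *dpy-4*, *dpy-5* and *dpy-13* averaged 100 or more normalised counts, with a wide spread between libraries.

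**Figure D2:**
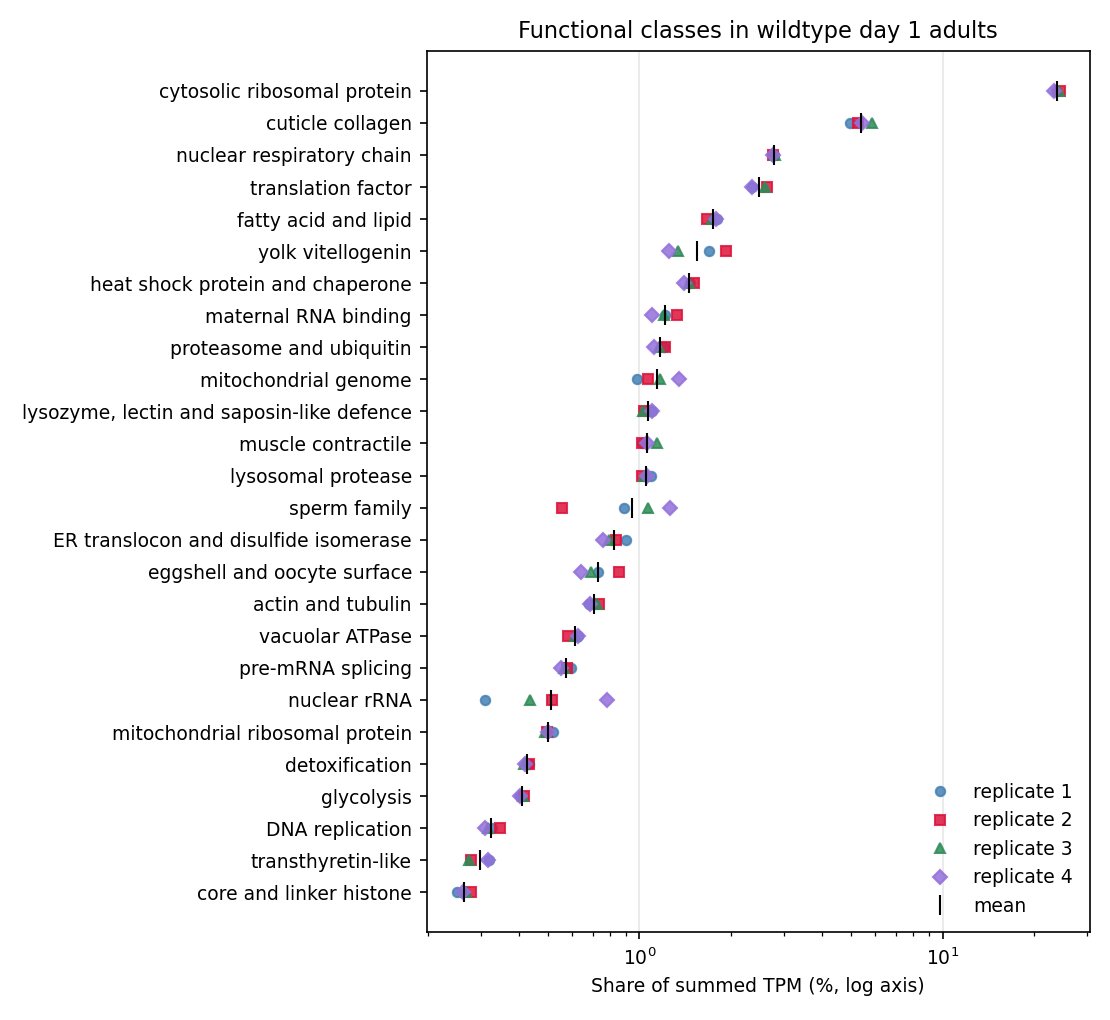
Share of the summed TPM held by the 26 largest functional classes in the 4 wildtype libraries, on a log axis in percent; each marker is a library and the tick is the mean. Most classes differ little between libraries, and the widest gaps are in the sperm family, nuclear rRNA, vitellogenins and the mitochondrial genome.

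Classes of the reproductive system had wider gaps between libraries. The 6 vitellogenin genes held 1.70, 1.92, 1.34 and 1.25% of the summed TPM in replicates 1 to 4, or 5.93 ± 1.13% of counts. All 6 were highest in replicate 2 and lowest in replicate 4. Of all 9238 genes with 100 or more normalised counts, 31.3% were highest in replicate 2 and 31.5% lowest in replicate 4. The copies *vit-3*, *vit-4* and *vit-5* are close enough in sequence for reads to be split between them. Genes of the eggshell and oocyte surface held 0.729 ± 0.0923%, and all 16 of them were highest in replicate 2. Their leaders were *cpg-2*, an eggshell chondroitin proteoglycan, at 1494.8, 1768, 1561 and 1410 TPM, and the vitelline layer protein *perm-2* at 1242, 1382, 1036 and 944 TPM. RNA-binding proteins of oocytes and early embryos held 1.22 ± 0.0940%, and 23 of 27 were highest in replicate 2. Among them were *cey-2*, a Y-box protein, at 2154 ± 194 TPM, the RNA helicase *cgh-1* at 1225 ± 86.2 and the zinc finger protein *pos-1* at 836 ± 71.8.

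Sperm genes had the opposite order. The sperm family, mostly major sperm proteins (the cytoskeletal proteins that drive sperm crawling), held 0.892, 0.556, 1.07 and 1.26% of the summed TPM in replicates 1 to 4. Of 75 members with 100 or more normalised counts, 66 were lowest in replicate 2 and 64 highest in replicate 4. Of all genes with such counts, 25.5% were lowest in replicate 2 and 23.5% highest in replicate 4. *msp-31* stood at 556, 307, 615 and 720 TPM. Members of this family are near-identical, so single members are uncertain. How reads that match several members were counted is not given in the sources used here, so the level of the sum may be affected as well. Replicate 2 thus had the lowest sperm share beside the highest yolk, eggshell and maternal RNA shares. In whole animals, fewer cells of a type and less RNA per cell cannot be told apart. The germline core was even: genes of meiotic chromosomes held 0.115 ± 0.00445%, led by the axis protein *him-3* at 118 ± 5.46 TPM, and P granule and small RNA genes 0.223 ± 0.0114%, led by the Argonautes *wago-1* at 275 ± 25.9 TPM and *hrde-1* at 266 ± 15.3.

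Markers of tissues were read as lists, several of whose genes are also in the classes above. Summed over each list, 15 intestine markers stood at 14090 to 18351 TPM, 12 body wall muscle markers at 6892 to 7553, 14 oocyte markers at 6948 to 9350 and 12 epidermis markers at 5367 to 5752. The 14 neuron markers stood at 404 to 430 TPM and the 11 pharynx markers at 232 to 324. These sums rest on the genes listed and do not measure how much of the animal a tissue makes up. Intestine was carried by vitellogenins and by *asp-1*, an aspartyl protease, at 2447 ± 137 TPM, while its fate regulator *elt-2* averaged 13.3 TPM. In muscle, the troponin C gene *pat-10* led at 1770 ± 104.4 TPM and the myosin heavy chain *unc-54* averaged 719 TPM. Most of the neuron sum was *snb-1*, synaptobrevin, at 257 TPM.

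The stage given by the labels was read against markers as well. All 8 male markers and all 8 markers of the early zygotic embryo averaged below 1 TPM, and their sums stayed at 0.583 to 1.57 TPM and 0.801 to 1.63 TPM. The 12 larval moult markers summed to between 53 and 56 TPM, of which the nuclear receptor *nhr-23* gave 32.3 and the protease *nas-37* gave 12.6. Chemoreceptor genes formed one of the largest families with the least RNA: 9 of 957 passed 1 TPM in all libraries, and the family held 0.0189 ± 0.00102% of the summed TPM.

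**Figure D3:**
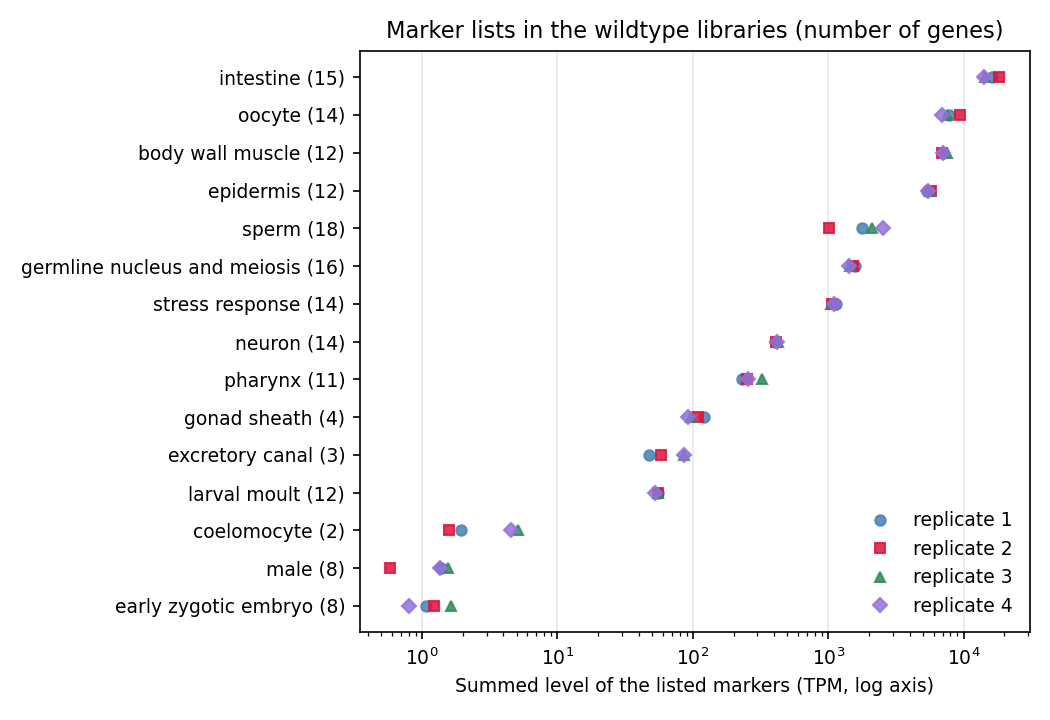
Summed level of each marker list in the 4 wildtype libraries in TPM on a log axis, with the number of genes in brackets. Intestine, oocyte, body wall muscle and epidermis markers are highest, male and early zygotic embryo markers lie near 1 TPM in sum, and sperm markers in replicate 2 (1017 TPM) are below the other libraries (1775 to 2531 TPM).

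Protein quality control and defence made smaller contributions. Heat shock proteins and chaperones held 1.46 ± 0.0445%, led by the cytosolic Hsp70 *hsp-1* at 1829 ± 116 TPM, *hsp-90* at 1582 ± 86.97 and by the small heat shock protein *sip-1* at 1372 ± 228, which is known from oocytes and embryos. Proteasome and ubiquitin genes held 1.17 ± 0.0449%, with the polyubiquitin gene *ubq-1* at 538 ± 16.52 TPM. Genes of the ER translocon and disulfide isomerases held 0.822 ± 0.0616%, lysosomal proteases 1.05 ± 0.0327%, and the lysozyme, lectin and saposin-like family 1.07 ± 0.0405%, led by *spp-17* at 1237 ± 159 TPM. Detoxification genes held 0.425 ± 0.00732%, led by the peroxiredoxin *prdx-2* at 765 ± 38.3 TPM and the superoxide dismutase *sod-1* at 305 ± 12.1. The 18386 genes in no class held 46.0 ± 0.715%.

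RNA came unevenly from the chromosomes. Chromosome I held 22.4 ± 0.131% of the summed TPM with 14.4% of the genes, and chromosome III 20.4 ± 0.223% with 13.2% of the genes; they carry 26 and 20 of the ribosomal protein genes. The X chromosome held 7.21 ± 0.172% with 14.2% of the genes, and it carries 2 ribosomal protein genes. In share of counts X, which carries *vit-2*, took 10.5 ± 0.667%. Protein-coding genes held 97.9 ± 0.235% of the summed TPM, and 131 of 1993 genes annotated as ncRNA passed 1 TPM in all libraries.

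Spread between the 4 libraries was measured as the SD of log2(normalised count + 1) in the 9238 genes that averaged 100 or more normalised counts. The median SD was 0.11, and 6996 genes (75.7%) were under 0.2. For comparison, counting error alone would give a median of 0.049. The common coefficient of biological variation was 17.01% in wildtype. The steadiest gene was *goa-1*, a G protein subunit, at 3648, 3667, 3683 and 3684 normalised counts, and the reference genes that the study used for RT-qPCR, *cdc-42*, *pmp-3* and *rpb-2*, had SDs of 0.020, 0.024 and 0.033. At the other end, 72 genes had an SD over 1. Spread was smaller at higher counts. The median SD was 0.21 in genes averaging 100 to 300 normalised counts and 0.085 in those at 3000 or more. The 100 genes with the highest TPM had a median SD of 0.092, with 0.55 as the largest. None of them was among the 100 most variable, which together held 0.284% of the summed TPM.

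**Figure D4:**
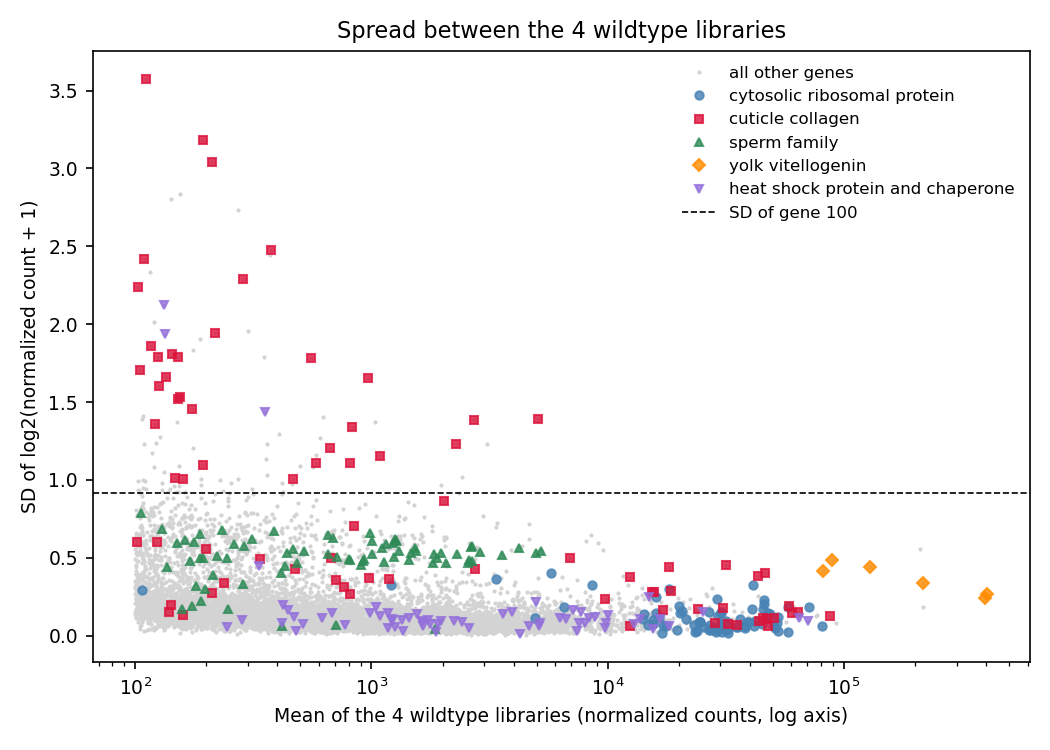
SD of log2(normalised count + 1) between the 4 wildtype libraries against the mean normalised count (log axis) for 9238 genes, with 5 classes marked; the dashed line is the SD of the 100th most variable gene (0.92). Cuticle collagens with low counts lie highest, sperm genes form a band near 0.52, and ribosomal protein genes lie at high counts with little spread.

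The 100 most variable genes were chosen by this spread, so what follows describes them and tests nothing. The last gene in the set, D1086.10, had an SD of 0.92 and the first one outside it, *nlp-29*, an SD of 0.91. Their counts were modest, with a median of 176 normalised counts, and 66 of them averaged between 100 and 300. That range held 2339 of all 9238 genes. The set as a whole was 100 of the 9238 genes that reached 100 counts. In it were 33 of 78 such cuticle collagens (42.3%) and 6 of 108 detoxification genes (5.56%). It also held 5 of 85 lysozyme, lectin or saposin-like genes (5.88%) and 3 of 66 heat shock and chaperone genes (4.55%). Genes in no class gave 47 of 7820 (0.601%). Chosen anew without replicate 2 the 100 held 16 collagens, without replicate 3 they held 19, and with a minimum of 500 counts 12. The library that lay farthest from the others was replicate 2, on the low side, for 55 of the 100. Replicate 2 was the lowest library for 56 of the 100 and for 25.5% of all 9238 genes, and replicate 3 was the highest for 47 of the 100 and for 14.99% of all genes.

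Collagens headed the list. *dpy-5*, a cuticle procollagen on chromosome I whose loss shortens the body, had 73.2, 0, 287 and 84.8 normalised counts in replicates 1 to 4. With 0 of its reads in replicate 2, replicate 3 was at least 93.1-fold higher, taking 3 counts as the floor in that library. *col-88* (W05G11.3, chromosome III, 41061 to 42018) had 127, 2.06, 479 and 166, and *col-73* (F11G11.12, chromosome II, 4872098 to 4873127) had 162, 3.08, 483 and 195.6. In each of the 3 genes replicate 2 was nearly empty and replicate 3 highest. The same order held for *grl-16*, a ground-like protein of the apical matrix, at 137, 2.06, 449 and 181, and for *dpy-4*, *dpy-13*, *col-77*, *col-161* and *col-162*. All 33 collagens in the set were lowest in replicate 2, and 32 were highest in replicate 3.

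The split among collagens followed their level. The 47 collagens under 100 TPM had a median SD of 1.16 and gave 30 of the 33 genes in the set, yet held 1.91% of the RNA of the class. The 31 collagens at 100 TPM or more had a median SD of 0.19 and held 97.9%. Summed, the 47 stood at 802, 485, 1591 and 1228 TPM in replicates 1 to 4, so that replicates 3 and 4 were above replicates 1 and 2. The most abundant collagen in the set was *col-147*, at 2433, 1187, 7610 and 9104 normalised counts.

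Inducible heat shock genes varied with another library at the top. *hsp-16.41* (Y46H3A.2, chromosome V, 1805233 to 1805875), a small heat shock protein, had 317, 143, 9.27 and 62.6 normalised counts in replicates 1 to 4. Its divergent neighbour *hsp-16.2* (Y46H3A.3, chromosome V, 1804334 to 1804971) had 340, 117, 12.7 and 65.0. *hsp-70* (C12C8.1), a heat-inducible Hsp70, had 944, 215, 90.3 and 164. All 3 were highest in replicate 1 and lowest in replicate 3, the reverse of the collagens at replicate 3. In replicate 1 they reached 32.3 TPM for *hsp-16.41* and 27.9 TPM for *hsp-70*, and the means over the 4 libraries were 13.4 and 10.4 TPM, while the 14 stress markers as a list summed to 1055 to 1134 TPM in the 4 libraries. The *hsp-16* genes resemble one another, so reads may be split among them.

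Among the other genes of the set, both in the fatty acid and lipid class were highest in replicate 1, and none of the 6 detoxification genes was. *dhs-26*, a short-chain dehydrogenase, had 344, 62.7, 64.9 and 10.3 normalised counts. *fat-7*, a stearoyl-CoA desaturase, had 4336, 1134, 1364 and 1008, while *gpdh-1*, a glycerol-3-phosphate dehydrogenase that osmotic stress is known to induce, had 719, 2913, 4340 and 4371. Replicate 1 was thus highest for *dhs-26* and *fat-7* and lowest for *gpdh-1*, and replicate 4 was lowest for *dhs-26*. Another group was low in replicate 3: *ule-4*, named for expression in the uterine lumen, had 3487, 2873, 733 and 2549, *ule-2* had 909, 684, 132 and 688, and D1086.10 had 3419, 2853, 827 and 2305. B0393.8 was also lowest in replicate 3 but was low in replicate 4 as well, at 267, 282, 5.79 and 13.5. *pud-3* was highest in replicate 2 and lowest in replicate 4, as the vitellogenins were, at 177, 1069, 229 and 16.6. Y45G12C.16 was lowest in replicate 1, like *gpdh-1*, at 25.4, 515, 371 and 292.

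**Figure D5:**
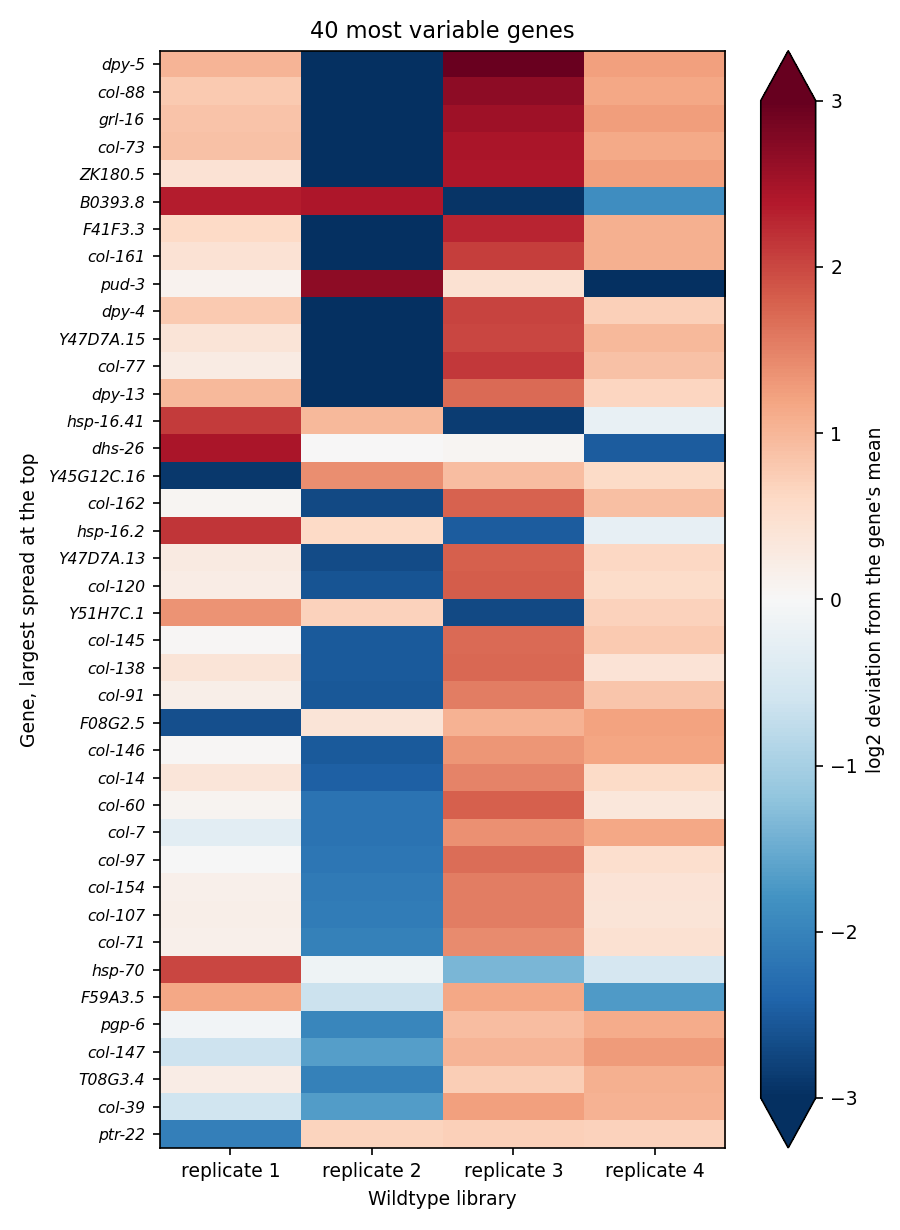
The 40 most variable genes in the wildtype libraries, largest spread at the top, coloured by the log2 deviation of each library from the mean of the gene (scale ends at 3 in either direction). Replicate 2 is low and replicate 3 high for the collagens, and replicate 1 is high and replicate 3 low for *hsp-16.41*, *hsp-16.2* and *hsp-70*.

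The other genotypes were used to ask whether these genes vary in wildtype only. They had wider spread than other genes in every group: the median SD of the 100 was 0.61 in *ubql-1(tm1574)*, 0.87 in the *hsf-1* OE-labelled libraries, 0.64 in the double genotype and 1.23 in wildtype, where they were chosen. Over all 9238 genes the medians were 0.12, 0.18, 0.15 and 0.11 in the same order of groups. Most of the 100 had low counts, where spread is larger, and no comparison at equal counts was made. The order of the libraries was counted over the 4 genotypes. In 43 of the 100 genes, replicates 1 and 2 were both below replicates 3 and 4 in each genotype. Of all 9238 genes 3.33% had this order. Wildtype is 1 of the 4 genotypes and its spread chose the genes, so the counts describe the set and do not test it. Of the 33 collagens, 31 had this order. On the shared scale their sum was 23304, 26660, 55722 and 46030 normalised counts in replicates 1 to 4 of *ubql-1(tm1574)*, 49868, 109655, 225736 and 243737 in the *hsf-1* OE-labelled libraries, 76630, 71030, 156591 and 159912 in the double genotype, and 13863, 5100, 38666 and 32520 in wildtype. Replicates 3 and 4 exceeded replicates 1 and 2 in all 4 genotypes.

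Yolk showed the opposite order in the same libraries. The vitellogenin share was 1.95, 1.90, 1.42 and 1.397% in replicates 1 to 4 of *ubql-1(tm1574)*, 1.63, 1.49, 0.871 and 0.821% in the *hsf-1* OE-labelled libraries, 1.52, 1.79, 0.999 and 1.07% in the double genotype, and 1.70, 1.92, 1.34 and 1.25% in wildtype. In all 6 vitellogenin genes replicates 1 and 2 were above replicates 3 and 4 in each genotype, an order that 16.3% of all genes had. *ule-4* was lowest in replicate 3 of each genotype, at 915 normalised counts in *ubql-1(tm1574)*, 1257 in the *hsf-1* OE-labelled libraries, 782 in the double genotype and 830 in wildtype. *gpdh-1* was lowest in replicate 1 of each, at 2274, 1691, 1719 and 831 in that order of groups. What the replicates with 1 number share is not given in the labels, and its part in these values was not tested. The heat shock genes did so in some groups: *hsp-16.41* had 335, 123, 25.9 and 64.9 in *ubql-1(tm1574)* and 367, 170, 10.5 and 72.1 in wildtype, but 406, 575, 368 and 265 in the *hsf-1* OE-labelled libraries. B0393.8 did not keep its order, with 8.99, 306, 300 and 2.54 in *ubql-1(tm1574)*, against 309, 335, 6.56 and 15.5 in wildtype.

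The genotype comparisons were read on the abundant and the variable genes, because a gene that varies within wildtype can move a comparison with it. A call was an adjusted p under 0.05 (edgeR, quasi-likelihood, Benjamini-Hochberg over all genes tested) and a change of over 2-fold. In *ubql-1(tm1574)* against wildtype 2.41% of the 14183 genes tested were called, 2.31% higher and 0.0987% lower. The *hsf-1* OE-labelled libraries against wildtype had 26.2% of 14794 called, 22.6% higher and 3.6% lower. Both comparisons use the same wildtype libraries. Of the 100 most abundant genes, edgeR called 0 in either comparison; at an unadjusted p under 0.05 there were 14 and 13, and DESeq2 called 0 and 1 (*cey-2*, lower). Their log2 fold changes lay between -0.34 and 0.21 for *ubql-1(tm1574)* and between -0.86 and 0.77 for the *hsf-1* OE label. 

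The 100 variable genes were chosen by their spread in the same wildtype libraries that form the baseline of both comparisons. In 55 of them wildtype replicate 2 lay farthest from the others, on the low side, which lowers the wildtype mean. The counts of calls below therefore describe the set and do not test it. Of the 100 variable genes, 4 were called in *ubql-1(tm1574)*: the collagens *col-38*, *col-71* and *dpy-13* were higher and the C-type lectin *clec-52* was lower. They had 4.00% called beside 2.41% of all genes, and a median log2 fold change of 0.42 beside 0.028 over all genes tested. With the replicate number as a block, which fits the order shared by the libraries, the same comparison called 35 of the 100, 33 of them higher, beside 5.49% of all genes (5.32% higher and 0.169% lower). Leaving out any 1 of the *ubql-1(tm1574)* libraries brought the 4 calls to 0, and leaving out wildtype replicate 2 brought them to 7. In the *hsf-1* OE-labelled libraries, 57 of the 100 were called, 55 higher and 2 lower (Y45G12C.16 and F59A3.5), with a median log2 fold change of 1.85 beside 0.28 over all genes; the block gave 63, beside 26.3% of all genes (22.6% higher and 3.74% lower). Under another scaling (RLE) the median of all genes in this comparison dropped by 0.17. Of the variable genes 55 were then higher and 3 lower, beside 2869 higher and 890 lower among the 14794 genes tested. The median of the 100 most abundant genes changed sign, at 0.051 under TMM and -0.12 under RLE.

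*dpy-5* shows what the spread does to a single gene. It had 473, 492, 954 and 854 normalised counts in *ubql-1(tm1574)*, and 84.6, 0, 325 and 97.7 in wildtype on the same scale. The ranges did not overlap and it was higher at each replicate number, but the log2 fold change of 2.50 did not pass (adjusted p = 0.0723, edgeR). With the replicate block it was 2.86 and passed (adjusted p = 0.0119, edgeR). In the *hsf-1* OE-labelled libraries it had 354, 1847, 3812 and 9332, a log2 fold change of 5.09 (adjusted p = 0.00403, edgeR). *hsp-16.41* had a log2 fold change of -0.14 in *ubql-1(tm1574)* (adjusted p = 0.93) and of 1.55 in the *hsf-1* OE-labelled libraries (adjusted p = 0.080, edgeR), where the block gave 2.05 (adjusted p = 0.0243, edgeR).

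The classes described above were counted in the same comparisons. In the *hsf-1* OE-labelled libraries, 73.8% of the 141 cuticle collagens tested were called, all of them higher, and 59 of 126 sperm genes (46.8%) were higher, beside 22.6% of all genes. In the other direction 9 of 16 eggshell and oocyte surface genes (56.3%) and 11 of 27 maternal RNA-binding genes (40.7%) were lower, beside 3.6% of all genes. Under RLE scaling the lower genes were 12 of 16 and 19 of 27, beside 890 of all 14794 genes tested (532 under TMM). Of the 126 sperm genes 49 were then higher, beside 2869 of all genes (3341 under TMM). Of the 85 cytosolic ribosomal protein genes 1 was called, *rpl-42*, which was higher. In *ubql-1(tm1574)*, 22 of 129 collagens (17.1%) were higher, beside 2.31% of all genes, and with the replicate block 57 (44.2%), beside 5.32%. Of 123 sperm genes 4 were higher (3.25%), near the 2.31% of all genes, and the block gave 14 (11.4%), beside 5.32%. The median log2 fold change of the sperm genes was 0.55, beside 0.028 over all genes tested. It was positive in 105 of the 123, and 68 had an unadjusted p under 0.05 (edgeR). There, 0 of the 85 ribosomal protein genes were called by edgeR or DESeq2, with 14 at an unadjusted p under 0.05. These directions were the same under RLE scaling. The sperm and oocyte marker lists, which hold genes of the same classes, differed between wildtype libraries (highest over lowest sum 2.49 and 1.35), as did the short coelomocyte and excretory canal lists and the pharynx list (3.23, 1.80 and 1.39), and their part in the calls was not tested.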

How the data were processed

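Whole-animal mRNA of 16 libraries was counted per gene by the authors. Per the submitters' processing notes, reads were aligned with HISAT2 2.0.5 to WBcel235 and counted with featureCounts 1.5.0-p3, and DESeq2 was used; the strand setting is not given in the sources used here. The counts are whole numbers that the authors deposited without normalisation, and they were used as they are. The deposited FPKM columns of the wildtype libraries, which the authors derived from counts, library size and gene length, were rescaled to the sum of TPM and differed from TPM computed from the counts by less than rounding error. The authors' normalised counts, group means, fold changes and p-values were not used, and 44 per-sample columns were left out in all.

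TPM used the deposited gene lengths. Normalised counts were counts over TMM factors (edgeR 4.0.16, R 4.3.3), and spread was the SD of log2(count + 1) in genes averaging 100 or more. Of 22248 gene IDs, 21725 matched a WBcel235 locus tag and 523 none; 12 mitochondrial coding genes were matched by position (80% reciprocal overlap). The 33 functional classes were built from symbol lists, name patterns, biotypes and chromosomes. The libraries, classes and lists were chosen with earlier results of these data known, and the class lists were matched to annotated symbols after the files were read. Named genes are the 20 most abundant, the 20 most variable, the 4 leading genes of each class, the marker genes, *hsf-1*, *ubql-1* and the study's reference genes; *goa-1*, *fat-7*, *gpdh-1*, *ule-2*, *ule-4*, *col-147*, D1086.10, *rpl-37.2*, *rpl-41.1*, *rpl-42*, *col-38*, *col-71*, *clec-52* and F59A3.5 were added after their values were seen.

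Genotypes were compared with edgeR's quasi-likelihood test on the 8 libraries of each pair (filterByExpr, TMM) and with DESeq2 1.42.0. In a test on simulated data, 96% of genes changed 3-fold were called for *ubql-1(tm1574)* against wildtype and 94% for *hsf-1* OE against wildtype. Of genes changed 2-fold, 50% and 46% were called, but 2-fold is the threshold of a call, so these 2 values do not measure sensitivity. The changed genes were drawn above a minimum level, and the simulated libraries lacked the order shared by replicate numbers. Same-numbered libraries deviated together from their group means: over 9238 genes the correlation with wildtype was 0.30 to 0.65 in *ubql-1(tm1574)*, 0.18 to 0.37 in *hsf-1* OE and 0.35 to 0.58 in *hsf-1* OE;*ubql-1(tm1574)*, all over 0.1, so the numbers were taken to pair the samples. Differently numbered libraries reached 0.45, 0.42 and 0.35, and the library with its own number was the best match for 4, 2 and 4 of the 4 in that order of groups. Over the 100 variable genes the same-number correlations were 0.36 to 0.80, 0.077 to 0.79 and 0.50 to 0.74, so the lowest in *hsf-1* OE fell under 0.1. That pairing comes from the data, since the labels give only the number. Alternatives covered the unit, the detection limit, the count minimum, the pseudocount, the normalisation, the test, the replicate block and each library left out. Intervals and floors cover counting error only.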

Additional observations from a re-analysis of the deposited data

Results flagged for a closer look

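Of 94 sets of 4 wildtype values examined, 2 had a library set apart from the other 3, fewer than the about 1 in 20 that chance gives. The share of the summed TPM held by moulting and apical matrix genes was 0.0866% in replicate 1, above 0.0797 to 0.0806% in the other libraries. *dhs-26* had 344 normalised counts in replicate 1, above 10.3 to 64.9 in the others.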

How the results depend on the processing

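Of 174 recomputed values, 133 kept their side or stayed within 1.5 times or the replicate SD, 41 moved and 0 reversed. Shares of counts in place of TPM were 11.6% for cytosolic ribosomal proteins, 4.24% for collagens, 2.98% for translation factors, 2.21% for the nuclear respiratory chain, 5.93% for vitellogenins, 0.388% for the sperm family, 1.05% for eggshell genes, 0.858% for the mitochondrial genome and 1.48% for muscle; among protein-coding genes only, the respiratory chain held 2.83%. By CPM, 523 genes held 50%. Of the 100 variable genes, 38 remained with a minimum of 20 normalised counts and 20 with a minimum of 500, where 12 collagens were among the 100 (only 20 of the set reach 500). Leaving out single wildtype libraries kept 57 to 86 of the 100, with 16 to 35 collagens among the new 100 (16 without replicate 2, 19 without replicate 3), and 97 to 99 of the 100 most abundant genes; 312 to 327 genes held 50%. The same omissions gave shares of 23.7 to 24.02% for ribosomal proteins, 5.21 to 5.51% for collagens, 2.43 to 2.53% for translation factors, 2.76 to 2.78% for the respiratory chain, 1.43 to 1.65% for vitellogenins, 0.838 to 1.07% for sperm, 0.686 to 0.758% for eggshell, 1.07 to 1.196% for the mitochondrial genome and 1.03 to 1.07% for muscle.

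For *ubql-1(tm1574)* against wildtype the 342 calls became 779 with the replicate block, 585 with DESeq2 and 1178 with no fold threshold, and 42 to 739 with a library left out (68, 188, 126 and 739 without wildtype replicates 1 to 4, 70 without *ubql-1(tm1574)* replicate 1, 42 without its replicate 3 and 45 without its replicate 4). Its calls among the variable genes were 35 with the block, 12 with DESeq2 and 0 to 7 with a library left out. For *hsf-1* OE against wildtype the 3873 calls were 3898 with the block, 9960 with no fold threshold and 3430 to 4402 with a library left out. Of its abundant genes, 1 was called by DESeq2, 1 under RLE scaling, 10 with no fold threshold and 0 to 1 with a library left out, and of its variable genes 57 to 61. The causes were not tested.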

Other observations

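Secreted peptides and surface proteins of the wildtype animals were at low to moderate levels. Neuropeptide and insulin genes held 0.151 ± 0.0130% of the summed TPM (SD, n = 4), with 99 of 139 at 1 TPM or more in all libraries, and were led by *nlp-24* at 209 ± 46.7 TPM and by *nlp-40*, an intestinal peptide that sets the defecation rhythm, at 179 ± 13.2 TPM. Of 38 members with 100 or more normalised counts, 22 were lowest in replicate 1, beside 19.4% of all genes with such counts. Transthyretin-like genes held 0.297 ± 0.0238%, led by *ttr-16* at 615 ± 15.7 TPM. Nuclear hormone receptors, with 139 of 268 detected, held 0.125 ± 0.00471%, led by *nhr-114* at 116 ± 23.9 TPM and *nhr-49*, a regulator of fat metabolism, at 61.8 ± 3.27 TPM. F-box, MATH and BTB genes, which include substrate adaptors of ubiquitin ligases, held 0.216 ± 0.00669% with 155 of 454 detected.

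Replication genes and histones differed little between libraries in their share of the summed TPM, at 0.325 ± 0.0164% and 0.264 ± 0.0122%. Of 31 replication genes with 100 or more normalised counts, 22 were highest in replicate 2 and 20 lowest in replicate 4. Of all genes with such counts, 31.3% and 31.5% were. The 15 histone genes at that level had a median SD of 0.142, beside 0.114 for all genes. The replication clamp *pcn-1* averaged 464 ± 29.7 TPM, the ribonucleotide reductase subunit *rnr-2* 427 ± 23.2 TPM and the variant histone *htz-1* 478 ± 30.6 TPM (SD, n = 4). Most core histone mRNAs lack a poly(A) tail, and 31 of 65 histone genes passed 1 TPM in all libraries.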
